A study of Mus musculus with 12 samples.

Results

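miR-221 and miR-222 are microRNAs (miRNAs) cut from neighbouring hairpins of the mouse X chromosome. The 4 members described here are both arms of each hairpin (mmu-miR-221-3p, mmu-miR-221-5p, mmu-miR-222-3p and mmu-miR-222-5p, written below without the species prefix), taken by name from the deposited counts of 1549 features. All 4 members had counts, and all 4 passed the filter on low values in both fits used below. Small RNA was sequenced from 12 libraries of 5 groups of mouse cells, all labelled wild type and collected by cell sorting. The haploid groups were 3 lines of androgenetic haploid embryonic stem cells (ESC), whose only chromosome set is paternal: A129-2 with 2 libraries, A129-6 with 3 and A129-17 with 2. These lines were kept with LIF and the kinase inhibitors PD0325901 and CHIR99021 and re-sorted for haploid cells at intervals, as haploid ESC tend to turn diploid in culture. R1, the only diploid ESC line, had 2 libraries, and its medium is not given separately. Round spermatids (RS), the haploid germ cells left by meiosis, came from testes of 129Sv males, sorted after Hoechst staining (3 libraries). The labels call the samples independent sorts and do not tie them to separate cultures or animals, so the spread behind each p-value is that between these samples and may be technical. The sources used here do not give the age of the males or any pooling.

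A miRNA hairpin gives a 3p and a 5p strand, of which one is usually loaded into Argonaute and pairs with messenger RNAs through its seed, while the other is mostly degraded. For this pair the 3p arms are the usual guide strands. They are best known for repressing Cdkn1b, an inhibitor of cyclin-dependent kinases that holds cells in G1, and its relative Cdkn1c, and they are abundant in fibroblasts and endothelium.

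The sequences are shown first because both 3p arms share a seed that the 5p arm of miR-221 does not have. Capitals mark the seed (bases 2 to 8 from the 5′ end), sequences are from RefSeq (GRCm38.p6, minus strand), and 3 of the 4 members had an entry.
miR-221-3p: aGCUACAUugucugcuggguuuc
miR-222-3p: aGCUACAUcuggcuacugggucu
miR-221-5p: aCCUGGCAuacaauguagauuucugu
miR-221-3p lies at chrX:19146307-19146329, miR-221-5p at chrX:19146344-19146369 and miR-222-3p at chrX:19146901-19146923. The 3p arms are identical over their first 8 bases and match at 11 of 23 positions when laid side by side without gaps. Their seed occurs in 3 mature miRNAs of that table, the third being miR-1928, and 2 of these (both 3p arms) were in the counts. Their GC content is 47.8% for miR-221-3p and 52.2% for miR-222-3p, against 38.5% for miR-221-5p.

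The hairpins are shown to place the arms, with the listed mature arms in capitals.
Mir221: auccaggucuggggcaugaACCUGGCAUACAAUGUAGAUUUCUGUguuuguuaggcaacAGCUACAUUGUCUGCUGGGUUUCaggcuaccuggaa
Mir222: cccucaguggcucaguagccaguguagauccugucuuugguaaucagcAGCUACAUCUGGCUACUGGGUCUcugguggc
Mir221 spans chrX:19146294-19146388 and Mir222 chrX:19146893-19146971, with 504 bases between them on the same strand. In the GENCODE M21 annotation (GRCm38) no other gene overlaps the stretch from one hairpin to the other. The nearest annotated gene, Gm14636, lies 10009 bases away.

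The match to the shared seed, ATGTAGC on the sense strand, was searched in the longest annotated 3′ untranslated region of each Cip/Kip inhibitor gene, the family of Cdkn1a, Cdkn1b and Cdkn1c. Cdkn1b (3439 bases) and Cdkn1c (688 bases) each held 1 match, followed by an A in both cases, and Cdkn1a (1334 bases) held 0. The matches are printed with their flanks because their letters are complementary to the shared seed (GENCODE M21, GRCm38), capitals marking the match and the A after it.
Cdkn1b: ctctaaaagcattggATGTAGCAttgcg
Cdkn1c: tgggacctttcgttcATGTAGCAggaac
These lie at chr6:134924416-134924443 (plus strand) and chr7:143458920-143458947 (minus strand). Among all 21020 such regions 9.45% held the motif. Among regions within 10% of the same length it was 23.2% for Cdkn1b (988 regions) and 4.97% for Cdkn1c (1087 regions). A match is a description of these letters, and messenger RNA was not analysed here.

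The haploid libraries held 3709786 to 9102467 counts, the R1 libraries 7632174 and 9176080, and the RS libraries 155232 to 243714, so RS values rest on few counts. Cell identity followed the labels. The 9 listed miRNAs of pluripotent cells summed to 76907 to 139504 CPM (counts scaled by the library's total) in haploid libraries and 193209 to 193614 in R1, against 57.4 to 2583 in RS. The upper end in RS was replicate 2, with 8 of the 9 counted. RS replicates 1 and 3 had 57.4 and 138 CPM, with 5 counted in each. The 5 spermatid miRNAs summed to 285 to 1671 CPM in haploid libraries and 1018 to 1066 in R1, against 267281 to 359477 in RS. The miR-290 cluster alone took 64.1% to 77.1% of counts in haploid libraries and 49.1% to 50.2% in R1, against at most 0.678% in RS, which makes CPM of different groups hard to compare.

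The 4 members together took 0.0206% to 0.0364% of counts in haploid libraries, 0.0146% in both R1 libraries and 0.0174% to 0.0390% in RS. miR-221-3p led the pair in every library. By mean CPM it was within the top 13.4% of the miRNAs counted in A129-2, 13.3% in A129-6, 16.1% in A129-17, 20.1% in R1 and 27.3% in RS. Of the members miR-222-3p came next in each group.

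miR-221-3p had 254 and 181 CPM in the A129-2 libraries, from 944 and 1648 counts. A129-6 held 229, 224 and 112 CPM, from 1649, 1408 and 816 counts. A129-17 held 102 and 147 CPM, from 705 and 825 counts. The haploid libraries thus spread over a wide range, with A129-6 replicate 3 and A129-17 replicate 1 lowest. In R1 it had 89.1 and 91.9 CPM, from 680 and 843 counts, below every haploid library. In RS it had 209, 116 and 174 CPM, from only 51, 18 and 29 counts. The 95% counting interval of the RS libraries ran from 68.7 to 275 CPM over all 3, so they overlapped the haploid libraries and, at the lower end, R1. The A129-2 mean was 218 ± 51.9 CPM, the A129-6 mean 188 ± 66.1, the A129-17 mean 125 ± 31.8, the R1 mean 90.5 ± 1.96 and the RS mean 166 ± 47.1 (SD of the libraries of each group). By mean CPM the order was A129-2, A129-6, RS, A129-17, R1. A129-2 and A129-6, and A129-6 and RS, differed by less than the SD of either. RS stood above A129-17 by less than the RS SD but more than the A129-17 SD, and A129-17 stood above R1 by more than the SD of either. The order depends on the scaling: once scaled for the tests with RS below, it was A129-6, A129-2, A129-17, RS, R1.

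miR-222-3p had 98.4 and 101 CPM in A129-2, from 365 and 920 counts. It had 112, 76.5 and 96.1 CPM in A129-6, from 809, 481 and 700 counts, and 95.5 and 82.1 CPM in A129-17, from 658 and 460 counts. These 7 values lay close together as CPM, though not after the scaling used for the tests below. In R1 it had 40.2 and 42.3 CPM, from 307 and 388 counts, so no haploid library overlapped R1. In RS it had 152, 51.5 and 149.97 CPM, from 37, 8 and 25 counts, with replicate 2 apart from the others. The A129-2 mean was 99.7 ± 1.90 CPM, the A129-6 mean 94.97 ± 17.9, the A129-17 mean 88.8 ± 9.48, the R1 mean 41.3 ± 1.46 and the RS mean 118 ± 57.4. By mean CPM the order was RS, A129-2, A129-6, A129-17, R1. Each neighbouring pair above R1 differed by less than the larger of its SDs, though the gaps on both sides of A129-2 exceeded its own small SD. R1 lay below A129-17 by more than the SD of either. The order depends on the scaling: once scaled for the tests with RS below, it was A129-17, A129-6, A129-2, RS, R1.

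miR-221-5p, the minor arm, had 4.31 and 6.37 CPM in A129-2 and 3.75, 4.93 and 6.32 CPM in A129-6. In A129-17 it had 5.81 and 6.07 CPM. R1 replicate 1 stood higher, at 12.2 CPM from 93 counts, while R1 replicate 2, at 6.21 CPM from 57 counts, lay within the haploid range. In RS it had 28.7, 6.44 and 42.0 CPM, from 7, 1 and 7 counts. Those counts are too few to order RS against the ESC groups.

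miR-222-5p had 7.28 and 1.76 CPM in A129-2, from 27 and 16 counts. It had 0.833, 2.23 and 1.24 CPM in A129-6, from 6, 14 and 9 counts, and 2.76 and 2.50 CPM in A129-17, from 19 and 14 counts. In R1 it had 4.59 and 5.23 CPM, from 35 and 48 counts. All haploid libraries but A129-2 replicate 1 lay below R1. It had 0 counts in each RS library, and 3 counts over the group would be 5.30 CPM, above the means of 2.86 CPM in the haploid lines and 4.91 CPM in R1. Its level in RS was therefore not detectable at this depth, and no fold is given. Intervals and limits here cover counting error only, since reads amplified by PCR are not independent molecules.

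**Figure D1:**
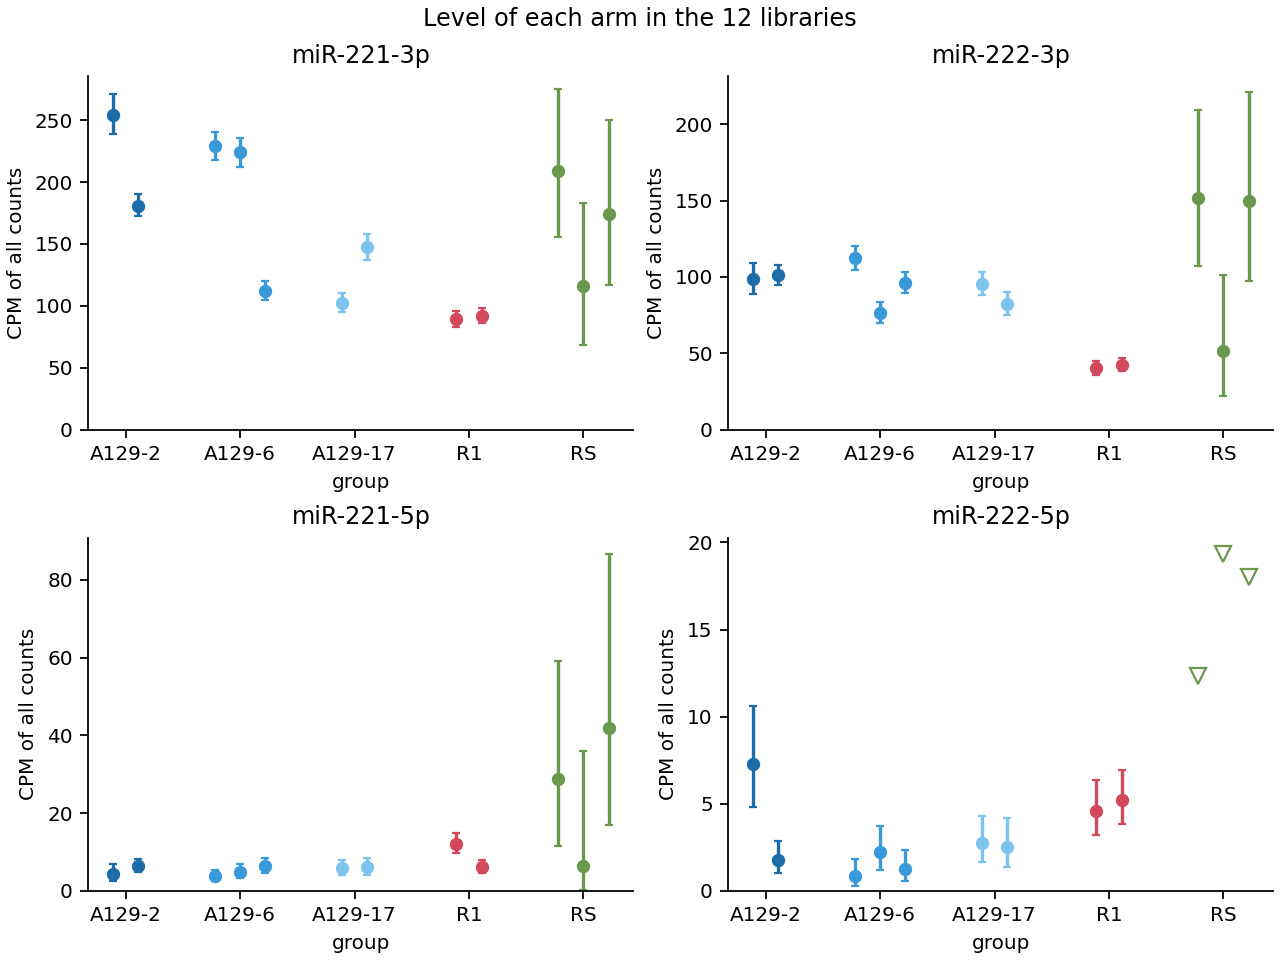
CPM of all counts of each arm (vertical axes) in the 12 libraries, by group; points are libraries, bars 95% Poisson intervals, and open triangles mark the limit of 3 counts where a library had 0. For both 3p arms the R1 points lie below all 7 haploid points, and the RS bars are wide.

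How the haploid lines differed from diploid ESC was the first comparison. R1 is the only diploid line and the haploid lines are all androgenetic, so ploidy, origin and line cannot be told apart. Both 3p arms were higher in the haploid lines than in R1, and neither 5p arm passed the test. miR-221-3p averaged 173 ± 21.9 normalised CPM in the haploid lines (SD of 3 line means) and 83.8 ± 1.06 in R1 (SD, n = 2), a 2.05-fold difference (log2 1.04, SE 0.25, edgeR adjusted p = 0.00202). miR-222-3p averaged 98.9 ± 9.80 in the haploid lines and 38.2 ± 0.0395 in R1, a 2.58-fold difference (log2 1.37, SE 0.34, edgeR adjusted p = 0.00234). Normalised CPM are relative to library sizes scaled by TMM, a method that assumes most miRNAs do not differ. On that scale the 7 haploid libraries ran from 135 to 205 for miR-221-3p and from 64.4 to 137 for miR-222-3p. The narrow range of miR-222-3p in CPM thus did not hold after scaling. Differences were common here, since 70.5% of the 757 features tested passed and 35.3% were higher in the haploid lines. All 7 haploid libraries lay above both R1 libraries for 34.7% of features, and both 3p arms were among them. With 2 of 4 members higher, the pair was near that background.

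miR-221-5p averaged 5.84 ± 1.16 normalised CPM in the haploid lines and 8.58 ± 4.20 in R1 (log2 -0.57, SE 0.48, edgeR adjusted p = 0.300). Its difference turned positive after GC correction (0.99, edgeR adjusted p = 0.108), when RS entered the fit (0.31) and without R1 replicate 1 (0.024). miR-222-5p averaged 2.73 ± 1.12 in the haploid lines and 4.54 ± 0.267 in R1 (log2 -0.84, SE 0.56, edgeR adjusted p = 0.191). With SEs of this size, a miss of the threshold does not show that the 5p arms were level.

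The 3p differences depended unequally on the settings. miR-222-3p passed under all 21 alternatives, at log2 1.02 to 2.23, while miR-221-3p passed under 18, with adjusted p = 0.0505 on total counts, 0.0537 without R1 replicate 1 and 0.0618 without R1 replicate 2. Relative to the median of all features, which stood at log2 0.33 and moved between -0.19 and 0.94 with the settings, miR-221-3p was higher by log2 0.71 (0.51 to 1.61 over the alternatives) and miR-222-3p by 1.04 (0.84 to 1.43). In bulk libraries fewer cells of a type and less RNA per cell cannot be told apart.

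Each haploid line was then set against R1, and the lines share the R1 libraries. miR-221-3p was higher in A129-2 by log2 1.16 (SE 0.30, edgeR adjusted p = 0.00388), in A129-6 by 1.14 (SE 0.28, 0.00226) and in A129-17 by 0.82 (SE 0.30, 0.0252). miR-222-3p was higher in A129-2 by log2 1.21 (SE 0.39, edgeR adjusted p = 0.0157), in A129-6 by 1.40 (SE 0.37, 0.00404) and in A129-17 by 1.50 (SE 0.40, 0.00410). Of all features 59.8% passed in A129-2, 67.1% in A129-6 and 66.2% in A129-17, and 31.0%, 35.0% and 34.6% were higher in the same order. The A129-17 value of miR-221-3p was the least secure, losing its call under 8 of 20 alternatives (adjusted p up to 0.398 on total counts), among them without A129-17 replicate 2 (0.158), without R1 replicate 1 (0.173) and without R1 replicate 2 (0.186). The A129-2 value of miR-221-3p was lost without R1 replicate 1 (0.0607) or 2 (0.0668), and the A129-6 value without R1 replicate 2 (0.0529). The A129-2 value of miR-222-3p was lost after GC correction (0.0820) and without A129-2 replicate 2 (0.163), R1 replicate 1 (0.0912) or R1 replicate 2 (0.0911).

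Of the 5p arms, miR-222-5p was lower in A129-6 (log2 -1.64, SE 0.68, edgeR adjusted p = 0.0445), where 32.1% of all features were lower. The call was lost under 7 of 18 alternatives, including without A129-6 replicate 1 (0.161) or 2 (0.0591), without R1 replicate 1 (0.155) or 2 (0.192) and with the replicate block (0.0638). It stood at -0.38 in A129-2 and -0.51 in A129-17 (edgeR adjusted p = 0.669 and 0.549). miR-221-5p stood at -0.78, -0.66 and -0.26 in A129-2, A129-6 and A129-17, with edgeR adjusted p of 0.286 or more. Without the ESC libraries of lowest TMM factor, an alternative added after the data were seen, it was lower in A129-6 (-1.23, adjusted p = 0.0400).

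The haploid lines were not told apart by any member. An F-test over the lines gave edgeR adjusted p = 0.656 for miR-221-3p, 0.819 for miR-221-5p, 0.874 for miR-222-3p and 0.398 for miR-222-5p, where 3.83% of features passed. Of 12 tests of member and pair of lines, 0 passed in edgeR (smallest adjusted p = 0.434) and 0 had an unadjusted p under 0.05, and DESeq2 also called 0. Of all features 2.38% passed between A129-6 and A129-2 and 0.00% in the other pairs of lines.

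**Figure D2:**
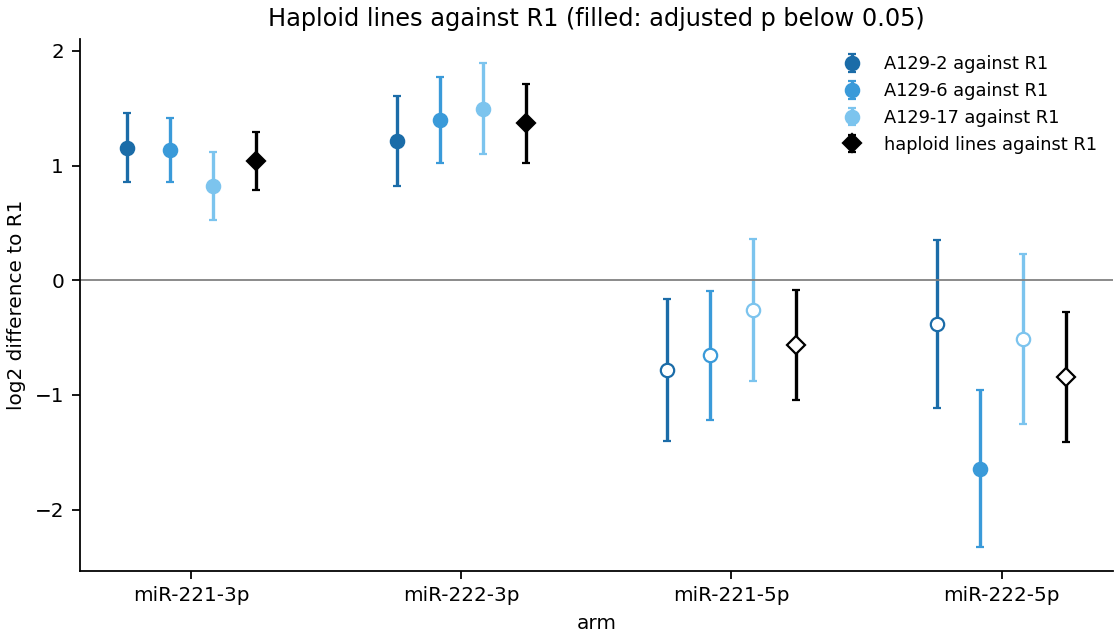
Log2 difference to R1 (vertical axis) of each arm in each haploid line (circles) and in the mean of the lines (diamonds), with bars of 1 SE; filled symbols have an edgeR adjusted p below 0.05. Both 3p arms lie above 0 in each line, and the 5p arms below it, where miR-222-5p in A129-6 is the one filled symbol.

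The arms were then compared within each library, which needs no scaling between libraries. The 5p arm was the smaller everywhere. Percentages are of the counts of both arms of one hairpin. For miR-221 it made up 1.67% and 3.40% in A129-2. The A129-6 libraries had 1.61%, 2.15% and 5.34%, and the A129-17 libraries 5.37% and 3.96%. In R1 it made up 12.0% and 6.33%, above every haploid library. In RS it made up 12.1%, 5.26% and 19.4%, from 15 counts of the 5p arm in all. The haploid and RS libraries overlapped at 5.26%.

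For miR-222 the 5p arm made up 6.89% and 1.71% in A129-2. The A129-6 libraries had 0.736%, 2.83% and 1.27%, and the A129-17 libraries 2.81% and 2.95%. In R1 it made up 10.2% and 11.0%, again above every haploid library. In RS there were 0 counts of the 5p arm beside 70 of the 3p arm, which allows a share of up to 4.29% over the group (Clopper-Pearson 95% upper bound 5.13%). By library the 3-count limit was 8.11%, 37.5% and 12.0%, so replicates 2 and 3 alone do not exclude the R1 shares.

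A fit of the paired arm counts of 219 miRNAs gave a ratio of 3p to 5p that was higher in the haploid lines than in R1 by 2.98-fold for miR-221 (log2 1.58, SE 0.53, edgeR adjusted p = 0.0198) and by 4.68-fold for miR-222 (log2 2.23, SE 0.60, edgeR adjusted p = 0.00763). Arm ratios that differed were common, as 57.1% of these miRNAs passed and 31.5% had the higher ratio in the haploid lines. How many of the 219 kept all haploid libraries apart from R1, as miR-221 and miR-222 did above, was not counted. With both arms corrected for GC, an alternative added after the data were seen, the miR-221 difference stood at log2 0.34 (adjusted p = 0.621), and without R1 replicate 1 it stood at 1.07 (adjusted p = 0.273). For miR-222 the correction could not be run, for want of an entry for the 5p arm, and its call was lost without R1 replicate 1 (adjusted p = 0.0722) or R1 replicate 2 (0.0829).

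Against RS the miR-221 ratio was higher in the haploid lines by log2 2.20 (SE 0.66, edgeR adjusted p = 0.0190), where 31.1% of miRNAs passed and 18.7% had the higher ratio in the haploid lines. The call was lost without RS replicate 1 (adjusted p = 0.0722) or 3 (0.152) and after GC correction (0.35, adjusted p = 0.903). Between R1 and RS it stood at 0.62 (SE 0.73, edgeR adjusted p = 0.784), where 11.9% passed.

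**Figure D3:**
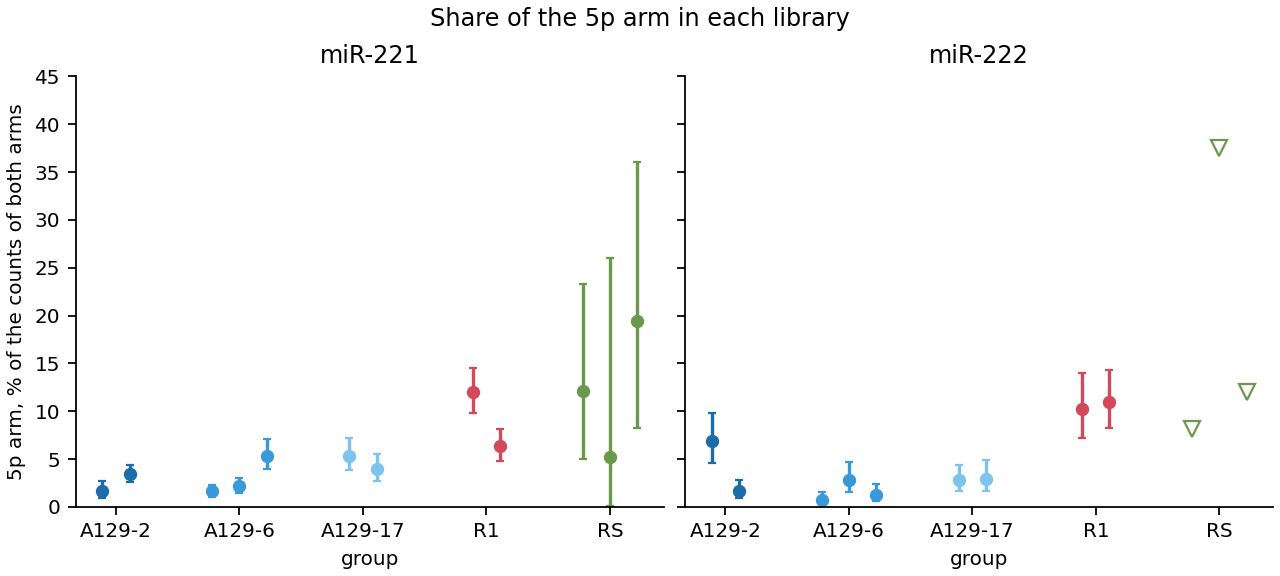
Share of the 5p arm in the counts of both arms (vertical axes, %) of miR-221 and miR-222 by library and group, with Clopper-Pearson 95% intervals; open triangles mark the limit of 3 counts where the 5p arm had 0. All 7 haploid points lie below both R1 points for each miRNA, from 1.61% to 5.37% for miR-221 and from 0.736% to 6.89% for miR-222. How many other miRNAs do so was not counted.

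The balance of the 3p arms was set against their own counts. miR-222-3p took 27.9% and 35.8% of the counts of both 3p arms in A129-2. The A129-6 libraries had 32.9%, 25.5% and 46.2%, and the A129-17 libraries 48.3% and 35.8%. In R1 it took 31.1% and 31.5%, and in RS 42.0%, 30.8% and 46.3%. The R1 libraries lay inside the haploid range, so the balance did not separate those groups. Libraries of one line could lie far apart: the counting interval was 23.5% to 27.5% in A129-6 replicate 2 and 43.6% to 48.7% in A129-6 replicate 3. The spread between separate libraries was not tested. The libraries with the highest shares, A129-17 replicate 1 and A129-6 replicate 3, were also the ESC libraries with the lowest TMM factors (0.758 and 0.701). Whether library composition has a part in the balance was not tested.

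**Figure D4:**
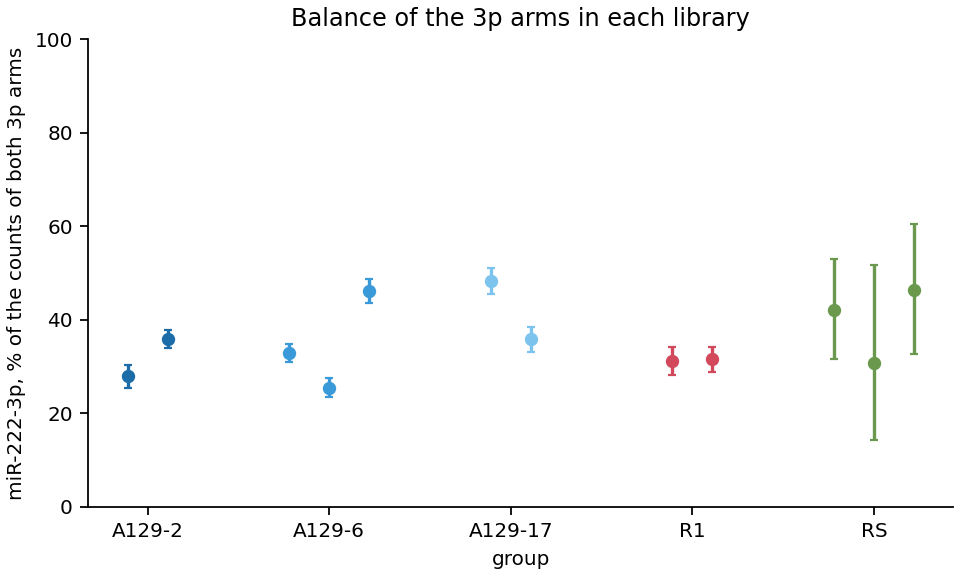
Share of miR-222-3p in the counts of both 3p arms (vertical axis, %) by library and group, with Clopper-Pearson 95% intervals. The haploid points range from 25.5% to 48.3% and enclose both R1 points near 31%.

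For the haploid lines against spermatids the direction of both 3p arms turned with the scaling. By TMM over all libraries miR-221-3p averaged 257 ± 28.7 normalised CPM in the haploid lines and 78.0 ± 33.2 in RS (log2 1.71, SE 0.34, edgeR adjusted p = 0.000111). miR-222-3p averaged 148 ± 16.5 in the haploid lines and 56.1 ± 32.1 in RS (log2 1.39, SE 0.41, edgeR adjusted p = 0.00460). On total counts the same differences were 0.040 and -0.34, with upper-quartile scaling 0.12 and -0.19, and after GC correction -0.66 and -2.01. Relative to the median of all features, which itself stood at log2 2.79 by TMM, miR-221-3p was at -1.09 (-1.86 to 0.56 over the alternatives) and miR-222-3p at -1.41 (-2.31 to 0.40), so that sign turned as well. Of all features 65.4% passed in that comparison, and 44.5% were higher in the haploid lines. TMM factors were 0.469 to 1.03 in haploid libraries, against 1.89 to 2.63 in RS. With ESC libraries thinned to RS depth, the median of all features was log2 0.078 over 403 features. It thus moved with depth and with the features kept.

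Between R1 and RS no member with counts in RS passed by TMM, where 53.0% of features did. miR-221-3p averaged 69.0 ± 1.58 normalised CPM in R1 and 78.0 ± 33.2 in RS (log2 -0.18, SE 0.41, edgeR adjusted p = 0.727). miR-222-3p averaged 31.5 ± 1.15 in R1 and 56.1 ± 32.1 in RS (log2 -0.84, SE 0.50, edgeR adjusted p = 0.173). miR-221-5p averaged 7.01 ± 3.21 in R1 and 12.3 ± 8.72 in RS (log2 -0.80, SE 0.73, edgeR adjusted p = 0.381). It averaged 8.78 ± 1.82 in the haploid lines, at log2 -0.49 to RS (SE 0.61, edgeR adjusted p = 0.474). Other scalings gave calls: miR-222-3p was lower in R1 with upper-quartile scaling (edgeR adjusted p = 0.00433), total counts (0.0179), GC correction (3.57e-05) and thinning to RS depth (0.00397). miR-221-3p was lower in R1 with upper-quartile scaling (0.0191) and GC correction (0.000195), and miR-221-5p with the same settings (0.0495 and 0.0181). Relative to the median of all features, which stood at log2 2.04, miR-221-3p was at -2.22 (-2.95 to -0.77 over the alternatives) and miR-222-3p at -2.88 (-3.90 to -1.38), below 0 under each alternative run. That median fell to 0.073, over 403 features, when ESC libraries were thinned to RS depth. Unadjusted for that median, the value of miR-221-3p between R1 and RS ran over the scalings from -2.13 after GC correction to 0.73 when the scaling ignored the miR-290 cluster.

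**Figure D5:**
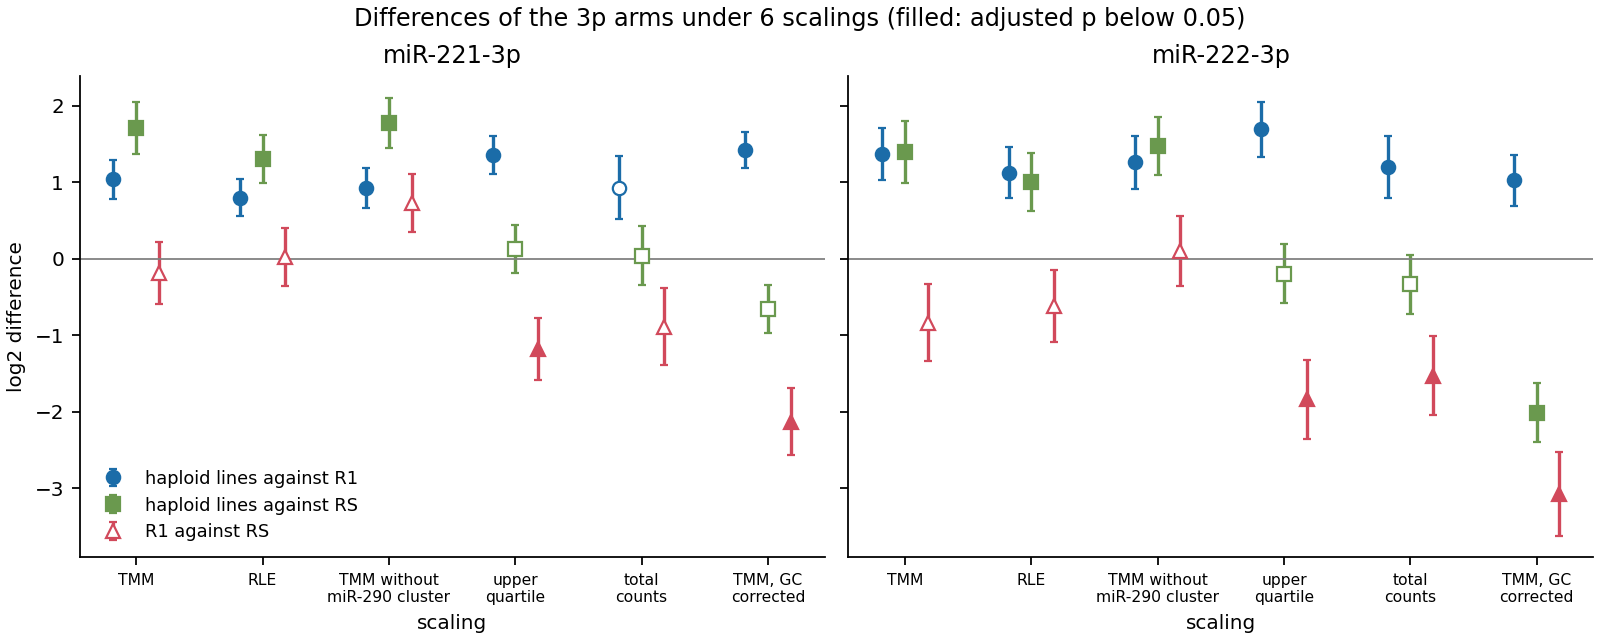
Log2 differences of miR-221-3p and miR-222-3p (vertical axes, bars of 1 SE) under 6 scalings for the haploid lines against R1 (circles), the haploid lines against RS (squares) and R1 against RS (triangles); filled symbols have an adjusted p below 0.05. The circles stay above 0 under each scaling, while the squares and triangles move across 0.

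Markers of mesenchymal cells and of blood and endothelium are set beside the pair. Of these cells, fibroblasts and endothelium were named above as rich in it. The 6 mesenchymal miRNAs were all counted in every library and summed to 5958 to 26969 CPM in haploid libraries, 15011 to 16709 in R1 and 23333 to 67592 in RS. The 8 miRNAs of blood and endothelium summed to 362 to 859 CPM in haploid libraries, 705 to 744 in R1 and 1456 to 14849 in RS. Of these miR-144-3p, a miRNA of red cells, was at 0 in 6 haploid libraries and RS replicate 2, and miR-223-3p, a myeloid miRNA, at 0 in 2 of them and in RS replicate 2. The summed haploid and R1 ranges overlapped for both lists, for the mesenchymal list only through A129-2 replicate 1. Every other haploid library had at most 12462 CPM of the mesenchymal list, below both R1 libraries. Single markers also differed. Of the 6 mesenchymal miRNAs 2 were higher and 2 lower in the haploid lines than in R1, and of 6 blood and endothelium miRNAs tested 2 were higher and 4 lower. The mesenchymal miR-214-3p, 1 of the 2 higher, differed by log2 5.04 (SE 0.47, edgeR adjusted p = 1.69e-07). It is named because it recurs below among the features most like miR-221-3p, and it does not stand for the list. A129-2 replicate 1 had the highest mesenchymal sum of the ESC libraries, 26969 CPM, and the highest CPM of miR-221-3p. It did not have the highest CPM of miR-222-3p (98.4, against 112 in A129-6 replicate 1). Without A129-2 replicate 1 miR-221-3p differed between haploid lines and R1 by log2 1.03 (edgeR adjusted p = 0.00292). RS replicate 2, with the lowest sums of both lists among RS libraries, also had the lowest CPM of miR-221-3p and miR-222-3p there. The part of such cells in the 3p differences between haploid lines and R1, and in the RS levels, was not tested.

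The other miRNAs listed as repressing Cip/Kip inhibitors target Cdkn1a (12 of 14) or Cdkn1c (2 of 14), and none was listed for Cdkn1b. Of the 14, 12 were lower in the haploid lines than in R1, 1 was higher and 1 did not pass, where 35.3% of all features were lower. Many share a family or cluster (miR-17, miR-290 or miR-302), so the 14 are not separate observations. Their median log2 difference was -1.16, against 0.33 for all features tested. miR-20a-5p, of the miR-17 family that represses Cdkn1a, averaged 189 ± 57.2 normalised CPM in the haploid lines and 1990.0 ± 312 in R1 (log2 -3.44, SE 0.30, edgeR adjusted p = 8.14e-08). miR-92b-3p, reported in human cells to repress the gene of Cdkn1c, averaged 2317 ± 428 in the haploid lines and 319.7 ± 33.4 in R1 (log2 2.84, SE 0.26, edgeR adjusted p = 1.47e-07).

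The other one listed for Cdkn1c, miR-25-3p, was lower in the haploid lines (log2 -1.07, SE 0.22, edgeR adjusted p = 0.000577). The list is not independent of the pluripotent markers, since 6 of the 14 are arms of the miR-290 and miR-302 clusters that are on both lists. Of the 9 pluripotent markers 7 were lower in the haploid lines than in R1 and 0 higher. Those markers are all 3p arms and do not stand for their whole clusters. The 5p arm miR-291a-5p was higher in the haploid lines (log2 1.57, SE 0.28, edgeR adjusted p = 0.000136). The miR-290 cluster as a whole took 64.1% to 77.1% of counts in haploid libraries, against 49.1% to 50.2% in R1.

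The most abundant of the list belong to the miR-290 cluster, whose 3p arms repress Cdkn1a in mouse ESC. miR-294-3p averaged 14517 ± 1530 normalised CPM in the haploid lines and 20012 ± 698 in R1 (log2 -0.47, SE 0.22, edgeR adjusted p = 0.0694). miR-295-3p averaged 11879 ± 1071 in the haploid lines and 23482 ± 4021 in R1 (log2 -0.99, SE 0.27, edgeR adjusted p = 0.00432). After GC correction both were higher in the haploid lines (0.77 and 1.07), and 8 of 13 listed miRNAs were lower and 4 higher. When RS entered the fit, 6 of the 14 were lower and 1 higher. Without R1 replicate 1 miR-295-3p did not pass (adjusted p = 0.0767), while miR-294-3p passed as lower without A129-2 replicate 2 (0.00996), with RLE (0.00714), with scaling that ignored the miR-290 cluster (0.0402) and in DESeq2 (0.00510). Under those last 3 settings 13 of the 14 were lower. Against RS 12 of the 14 were higher in the haploid lines, where 44.5% of all features were, and 13 of the 14 in R1, where 33.6% were.

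The features, members excepted, whose level followed the 3p arms most closely were picked by Pearson's r of log2 normalised CPM. Each needed a mean of at least 10 CPM. Over the 9 ESC libraries these were miR-540-3p (r = 0.987), miR-291a-5p (0.967) and miR-466b-5p (0.964) for miR-221-3p, out of 446 candidates. For miR-222-3p they were miR-7073-5p (0.994), miR-3057-5p (0.978) and miR-320-3p (0.971). No feature was shared between these lists. Over all 12 libraries let-7e-5p was on both lists, with r = 0.988 for miR-221-3p and 0.893 for miR-222-3p. The others were miR-214-3p (0.981), itself on the mesenchymal list, and miR-669m-5p (0.959) for miR-221-3p, and miR-205-5p (0.917) and miR-125a-5p (0.901) for miR-222-3p. Between miR-221-3p and miR-222-3p themselves r was 0.704 over the 9 ESC libraries and 0.901 over all 12. Within the 7 haploid libraries it was -0.538. Libraries of a group share composition and depth, and such r values are a description only.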

How the data were processed

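The deposited values are counts of reads for each miRNA, which the authors left unnormalised, per the file headers. Per the labels' protocols, small RNA received its 3′ adapter first and its 5′ adapter second, was amplified, size-selected on a gel and sequenced from one end. The submitters' processing notes name Bowtie 0.12.9 and DESeq2. The sources used here give no build, miRBase release or rule for reads with several matches. All 12 columns were matched by title.

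Features passed filterByExpr (minimum count 10, minimum total 15). edgeR 4.0.16 (R 4.3.3, limma 3.58.1) applied TMM and two-sided quasi-likelihood F-tests on group means, with Benjamini-Hochberg adjustment over all features and a threshold of 0.05. The 9 ESC libraries (757 features) were fitted for differences among ESC, and all 12 (806 features) for those involving RS, with haploid lines weighed equally. SE is the log2 difference over the root of F. Arm usage was fitted with edgeR on 3p and 5p counts, a term per library and an arm term per group, for 219 miRNAs whose lesser arm reached 10 counts in 2 libraries. Scripts were tested on simulated data with a set spread, changes set evenly up and down, and no other difference between groups. The real groups differ in many more features and in composition, which the simulation leaves out. The shares below therefore do not give the recovery in the real data. Of features changed by log2 1, 71% were recovered between haploid lines and R1 and 47% between haploid lines and RS. At log2 2 these shares were 100% and 87%. The arm fit recovered 32.4% of changes of log2 2 between haploid lines and R1, so a miss in arm usage says little. Alternatives covered scaling, filters, DESeq2 1.42.0, GC of the mature sequence and each library left out.

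All 4 members were named, with the features most like each 3p arm and, of a list of miRNAs that repress Cip/Kip inhibitors, the highest and lowest differences and the most abundant. The members and lists were chosen with earlier results of these data known.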

Additional observations from a re-analysis of the deposited data

Results flagged for a closer look

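The share of the 5p arm of miR-222 in A129-2 replicate 1 was 6.89% (27 of 392 counts of both arms), far above the other 6 haploid libraries, which had 0.736% to 2.95%. The gap to the nearest library was 0.640 of the range over the 7 haploid libraries, past Dixon's 95% critical value for 7 samples. Chance flags about 1 in 20 such groups, and 7 quantities were examined. The other A129-2 library had 1.71%. This library was also the shallowest of the ESC libraries, with 3709786 counts, and had the highest summed mesenchymal miRNAs among them (26969 CPM). The part of either in the share was not tested.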

How the results depend on the processing

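RS values rest on few counts, and R1 is a single line with 2 libraries. Values are log2 differences. Between haploid lines and R1, miR-222-3p held its call under every alternative run. On total counts miR-221-3p gave 0.93 (edgeR adjusted p = 0.0505). Its range with 1 library left out was 0.93 to 1.09, with the call lost without either R1 library. miR-221-5p gave 0.99 after GC correction and 0.31 when RS entered the fit, and -1.02 to 0.024 with 1 library left out. By line, miR-221-5p turned positive in A129-2 (0.68 with GC correction, 0.078 with RS in the fit), A129-6 (0.79 and 0.21) and A129-17 (1.51 and 0.63, and 0.13 with upper-quartile scaling). Its A129-17 range with 1 library left out was -0.73 to 0.31. miR-222-5p turned positive with RS in the fit in A129-2 (0.39) and A129-17 (0.36), and ran from -1.30 to 0.10 in A129-2 with 1 library left out. miR-294-3p gave 0.77 with GC correction and 0.39 with RS in the fit, and miR-295-3p gave 1.07 with GC correction.

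Between haploid lines and RS, miR-221-3p gave 0.12 (upper quartile), 0.040 (total counts), -0.66 (GC) and 0.64 (ESC thinned to RS depth). miR-222-3p gave -0.19, -0.34, -2.01 and 0.48 in that order, and miR-221-5p -2.08 (upper quartile) and -2.26 (total counts). Thinning left 340 of 403 features called, against 527 of 806. Of the features called, 68.1% were higher in the haploid lines, against 48.6% (upper quartile), 46.1% (total counts), 35.2% (GC) and 51.5% (thinned).

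Between R1 and RS, miR-221-3p gave 0.018 (RLE), -1.18 (upper quartile), 0.73 (scaling without the miR-290 cluster), 0.0048 (DESeq2), 0.78 (no filter), -2.13 (GC) and 0.47 (without the ESC libraries of lowest TMM factor, an alternative added after the data were seen). miR-221-5p gave -1.80 (upper quartile), 0.12 (without the cluster), 0.18 (no filter) and -2.14 (GC). miR-222-3p gave -1.84 (upper quartile), -1.53 (total counts), 0.10 (without the cluster), 0.17 (no filter), -3.07 (GC) and -2.37 (thinned). With 1 library left out the ranges were -0.18 to 0.68, -0.80 to 0.50 and -0.84 to 0.18 for miR-221-3p, miR-221-5p and miR-222-3p. Of the features called, 63.5% were higher in R1, against 49.6% (upper quartile), 40.3% (GC) and 74.1% (without RS replicate 2). Between haploid lines and R1 267 features were called each way, and 342 higher and 176 lower when RS entered the fit.

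For arm usage between haploid lines and R1, miR-221 gave 1.58 with limma (adjusted p = 0.0546) and 0.34 with GC correction. Between haploid lines and RS it gave 0.35 with GC correction. With 1 library left out the ranges were 1.07 to 2.08 (miR-221 against R1), 1.89 to 2.58 (miR-222 against R1) and 1.75 to 2.46 (miR-221 against RS). Called miRNAs numbered 125 between haploid lines and R1, and 64 to 129 with 1 library left out. They numbered 68 between haploid lines and RS, with 150 by limma, 43 after GC correction and 53 to 74 with 1 library left out. Between R1 and RS they numbered 26, with 79 by limma and 17 to 30 with 1 library left out.

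Same-numbered samples showed no clear shared deviation (21 pairs, r from -0.156 to 0.135). In groups of 2 libraries the deviations mirror each other, so these values are not independent and cannot exclude a pairing. The replicate block gave 1.07 for miR-221-3p and 1.27 for miR-222-3p between haploid lines and R1, and ended the call of miR-222-5p in A129-6 (edgeR adjusted p = 0.0638). The cause of these shifts was not tested.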
